A study of Homo sapiens with 24 samples.

Results

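The transcripts of the insulin-like growth factor (IGF) axis were examined in renal carcinoma cells with and without partial depletion of PAX8. PAX8 is a lineage transcription factor of kidney epithelium. The 10 genes were the binding proteins IGFBP1, IGFBP2, IGFBP3, IGFBP4, IGFBP5, IGFBP6 and IGFBP7, the receptors IGF1R and IGF2R, and the ligand IGF2, out of 26475 genes in each deposited table. They were taken by name as a family, and the family was selected on the fall of 1 of them: IGFBP5 was among the transcripts with the largest falls in OS-LM1 cells with shPAX8. For IGFBP5, the values of OS-LM1 against sgNTC18 are therefore a description and were not tested. Bulk RNA-seq was available for 24 libraries, in 6 groups of 4 replicates. 786-M1A and OS-LM1 are metastatic derivatives of the VHL-mutant clear cell renal cell carcinoma (ccRCC) lines 786-O and OS-RC2, and carry a luciferase transgene. Each line was sampled with shPAX8-1, with shPAX8-2, and with sgNTC18, whose label has the form of a guide construct. Each line is 1 derivative of 1 tumour line, grown in culture with serum.

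The construct type limits the comparisons with sgNTC18. No control of the same construct type as shPAX8 was analysed here. In every comparison of shPAX8 with sgNTC18, depletion of PAX8 cannot be told apart from the change of construct type or of experiment. The comparisons of shPAX8-1 and of shPAX8-2 with sgNTC18 share their control libraries within a line. The comparison of shPAX8-1 with shPAX8-2, and that of the lines within sgNTC18 or within shPAX8, stand within 1 construct type. Over all tested genes with a known transcript GC content, the construct difference correlated with GC, at Spearman -0.56 in 786-M1A and -0.21 in OS-LM1. Against sgNTC18 the correlation was -0.36 and -0.10 in 786-M1A and -0.32 and -0.27 in OS-LM1. Between the lines it was -0.25 with sgNTC18 and -0.20 with shPAX8, and 0.40 for the construct difference between the lines. Nothing in the labels says that replicates were separate cultures, so p-values measure the spread between these libraries, which may be technical.

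IGF1 and IGF2 are secreted growth factors that act through the receptor tyrosine kinase IGF1R and its relative, the insulin receptor. IGF2R, the cation-independent mannose 6-phosphate receptor, binds IGF2 and carries it to lysosomes without a kinase of its own. The binding proteins IGFBP1 to IGFBP6 hold IGFs outside the cell with high affinity, and IGFBP7 is a related protein that binds them weakly. Proteases such as the pappalysins PAPPA and PAPPA2 cut binding proteins and release the bound ligand, and the stanniocalcins STC1 and STC2 inhibit the pappalysins. In ccRCC, loss of VHL stabilizes hypoxia-inducible factors, and IGFBP1 and IGFBP3 are among genes that respond to hypoxia in many cell types.

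The guides define the perturbation, and their sequences are shown because all values below are read against them. They were copied from the oligonucleotide list of the study and matched to the GENCODE transcripts of PAX8 on GRCh38. Capitals mark the seed, bases 2 to 8 from the 5′ end of the guide, and both guides are antisense to PAX8 messenger RNA.
shPAX8-1 guide: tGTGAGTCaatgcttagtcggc
shPAX8-2 guide: tAGAGTTGtgttaataatggag
The shPAX8-1 target lay at chr2:113241690-113241711, in exon 7 of 12 of the PAX8 transcript, within the coding sequence, and was present in 9 of 10 coding transcripts. The shPAX8-2 target lay at chr2:113218122-113218143, in exon 12 of 12, within the 3′ UTR, and was present in 7 of 10 coding transcripts.

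The promoters of IGFBP5, IGF1R and IGF2R are shown because IGFBP5 fell furthest in OS-LM1 cells and both receptors were higher with each shPAX8 construct. Each run is the 250 bases before the RefSeq start on GRCh38.p14, written 5′ to 3′ on the strand of the gene. Capitals mark matches on either strand to 5 short motifs, namely the TATA box TATAAA, the GC box GGGCGG, the hypoxia response cores ACGTG and GCGTG, and GTCACGC, a paired-domain core. The complement of GTCACGC contains GCGTG, and CACGTG counts as ACGTG on both strands.
IGFBP5 promoter, chr2:216695550-216695799, minus strand: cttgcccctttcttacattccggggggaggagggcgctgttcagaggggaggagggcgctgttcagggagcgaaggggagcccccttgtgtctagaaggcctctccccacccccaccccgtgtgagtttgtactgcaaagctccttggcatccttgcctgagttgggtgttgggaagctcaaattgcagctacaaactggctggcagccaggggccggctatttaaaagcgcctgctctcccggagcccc
IGF1R promoter, chr15:98648289-98648538, plus strand: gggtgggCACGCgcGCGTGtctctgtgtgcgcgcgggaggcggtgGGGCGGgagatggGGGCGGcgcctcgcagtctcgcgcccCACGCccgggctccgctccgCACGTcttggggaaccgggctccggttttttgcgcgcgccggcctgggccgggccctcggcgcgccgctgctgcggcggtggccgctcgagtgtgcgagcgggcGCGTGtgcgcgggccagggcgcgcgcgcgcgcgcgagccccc
IGF2R promoter, chr6:159968832-159969081, plus strand: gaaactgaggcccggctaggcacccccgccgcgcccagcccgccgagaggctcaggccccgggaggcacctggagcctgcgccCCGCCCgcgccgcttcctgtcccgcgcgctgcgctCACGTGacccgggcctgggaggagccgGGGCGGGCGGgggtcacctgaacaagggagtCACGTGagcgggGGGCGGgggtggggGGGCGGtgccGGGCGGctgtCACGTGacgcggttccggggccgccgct
None of the 5 motifs was found in the IGFBP5 window, which was 61.2% G and C. The IGF1R window was 81.2% G and C and held 2 GC boxes, 1 match to ACGTG and 4 to GCGTG. The IGF2R window was 79.2% G and C and held 6 GC boxes and 6 matches to ACGTG, which are 3 copies of CACGTG read on both strands. Over 35116 promoter windows of the same length, the median G and C content was 58%, and 10.7% held TATAAA, 42.6% GGGCGG, 18.5% ACGTG, 32.2% GCGTG and 2.20% GTCACGC. Promoters were in the RefSeq table for 7 of the 10 genes, and not for IGFBP1, IGFBP7 and IGF2. A match is a run of letters and no measure of binding, and an absence says only that these letters are not in this window.

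PAX8 itself was lower in every shPAX8 library than in any sgNTC18 library of its line. In 786-M1A cells it ran at 292 to 393 CPM (read counts scaled to the normalized library size) with sgNTC18, at 14.8 to 22.9 with shPAX8-1 and at 40.0 to 45.5 with shPAX8-2. In OS-LM1 cells it ran at 245 to 279, 59.9 to 89.2 and 63.8 to 97.01 CPM. The log2 fold change was -4.16 and -2.99 in 786-M1A and -1.76 and -1.71 in OS-LM1, so the depth of depletion differed between the lines, and between the constructs in 786-M1A (-1.18, adjusted p = 4.0e-05) where in OS-LM1 that difference was -0.05 (adjusted p = 0.8; edgeR's quasi-likelihood test). Estimated counts summed to 11634419 to 52059375 per library. In 786-M1A with shPAX8-1, replicates 1 and 2 stood apart from replicates 3 and 4. Chi-square per gene was 14.1 and 3.73 within these pairs against 44.7 to 77.4 across them. The OS-LM1 groups were not uniform either. Between their replicates it ran from 16.03 to 89.45 with shPAX8-2, 10.41 to 43.8 with sgNTC18 and 5.267 to 34.33 with shPAX8-1. The value of 89.45 was between replicates 3 and 4 of OS-LM1 shPAX8-2, a group with depths of 14567945 to 52059375 counts. Only the 786-M1A shPAX8-1 group was split in the alternatives below. Among ccRCC markers, PAX8, EPAS1, VEGFA, EGLN3 and VIM were read in every library, while CA9 was at 0 in 9 libraries and NDUFA4L2 in 2. Endothelial markers summed to at most 1.41 CPM. Of the leukocyte markers, CD3E was at 0 in 24 libraries and PTPRC reached 0.317 CPM, while CD68 ran at 76.5 to 399 CPM and LYZ at 0.657 to 4.28.

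IGFBP5 was abundant in a single group. The protein binds IGFs and extracellular matrix. In OS-LM1 cells with sgNTC18, the 4 libraries stood at 127, 109, 142 and 129 CPM. With shPAX8-1 they stood at 4.66, 3.70, 3.37 and 4.36 CPM, and with shPAX8-2 at 4.83, 4.0, 4.88 and 3.68 CPM. The shPAX8 libraries did not overlap the sgNTC18 libraries, and the lowest sgNTC18 value lay far above the highest shPAX8 value. The fitted log2 fold change was -5.00 (SE 0.13) with shPAX8-1 and -4.86 (SE 0.13) with shPAX8-2, which is 32.0-fold and 29.0-fold lower. These values chose the family and carry no test. In bulk RNA, fewer cells that express IGFBP5 and less IGFBP5 RNA per cell cannot be told apart.

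Ranked by the difference in log2 CPM between group means, IGFBP5 was number 23 from the largest fall of 15665 genes with shPAX8-1 (-4.95) and number 26 with shPAX8-2 (-4.84). The neighbours in that order were LINC00462 (-4.96) and GRPR (-4.92) with shPAX8-1, and NOG (-4.90) and PLEK (-4.83) with shPAX8-2. The depleted level was alike under both guides. Between the constructs, IGFBP5 in OS-LM1 differed by -0.14 log2 (SE 0.14, 95% interval -0.43 to 0.15). The family was chosen on low IGFBP5 values in these same shPAX8 libraries. The likeness of the constructs is therefore a description and no separate evidence. The libraries of the constructs overlapped.

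In 786-M1A cells IGFBP5 was close to absent in every group. The 12 libraries held 1 to 14 counts each, or 0.0602 to 0.533 CPM, and the gene was not tested there. Pooled over replicates, the shPAX8-1 libraries held 17 counts and the sgNTC18 libraries 31, a depth-scaled ratio of 0.702 (95% counting interval 0.364 to 1.31). With shPAX8-2 the 24 counts gave a ratio of 1.18 (0.661 to 2.07). Both intervals cover counting error only and include 1, so neither a fall nor a rise was detectable at this depth. The 12 libraries of this line and the depleted OS-LM1 libraries did not overlap either, since the latter stood at 3.37 CPM or more. The difference of the depletion response between the lines, -4.80 log2 (SE 0.43), rests on the OS-LM1 values that chose the family and is given without a test.

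The genes most like IGFBP5 over the 6 group means were found among 9927 genes with an average log2 CPM of at least 3, by the root mean square difference of centred log2 means. GRPR, a G-protein-coupled receptor for gastrin-releasing peptide, was nearest at 0.65, with a mean of 53.0 CPM in OS-LM1 with sgNTC18, 1.74 with shPAX8-1 and 1.67 with shPAX8-2. UBD, a ubiquitin-like modifier, followed at 0.80 with 59.9, 2.51 and 7.04 CPM, and the long non-coding RNA AFAP1-AS1 at 0.93 with 78.1, 2.55 and 3.25 CPM. SCARA3 came next at 1.15 with 49.5, 13.7 and 21.7 CPM, and SFRP2, a secreted Wnt modulator, at 1.16 with 182, 4.86 and 3.62 CPM. These genes were chosen on the same group means, so a pattern shared with IGFBP5 follows from the choice. All 5 had group means of at most 1.00 CPM in 786-M1A cells and their highest mean in OS-LM1 with sgNTC18, and SCARA3 stayed well above its 786-M1A means with shPAX8.

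IGFBP2 is the chromosomal neighbour of IGFBP5 and did not share its level. The genes lie on chromosome 2, IGFBP2 at chr2:216632828-216664436 and IGFBP5 at chr2:216672105-216695549, 7.67 kb apart. IGFBP2 held 0 counts in 15 of 24 libraries and at most 7 in any, and passed the filter on low counts in no comparison. In OS-LM1 cells 10 of the 12 libraries were at 0 and the other two held 1 count each. In 786-M1A cells, 14 counts with shPAX8-1 against 4 with sgNTC18 gave a ratio of 4.48 (1.41 to 18.7, counting error only). The 4 sgNTC18 counts lay in 1 library, and the groups overlapped, at 0.120 to 0.261 against 0 to 0.221 CPM. With shPAX8-2 the libraries held 0 to 7 counts. IGFBP1 and IGFBP3, the other neighbouring pair, lie 18.6 kb apart on chromosome 7, at chr7:45888488-45893660 and chr7:45912245-45921272, and differed in level.

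**Figure D1:**
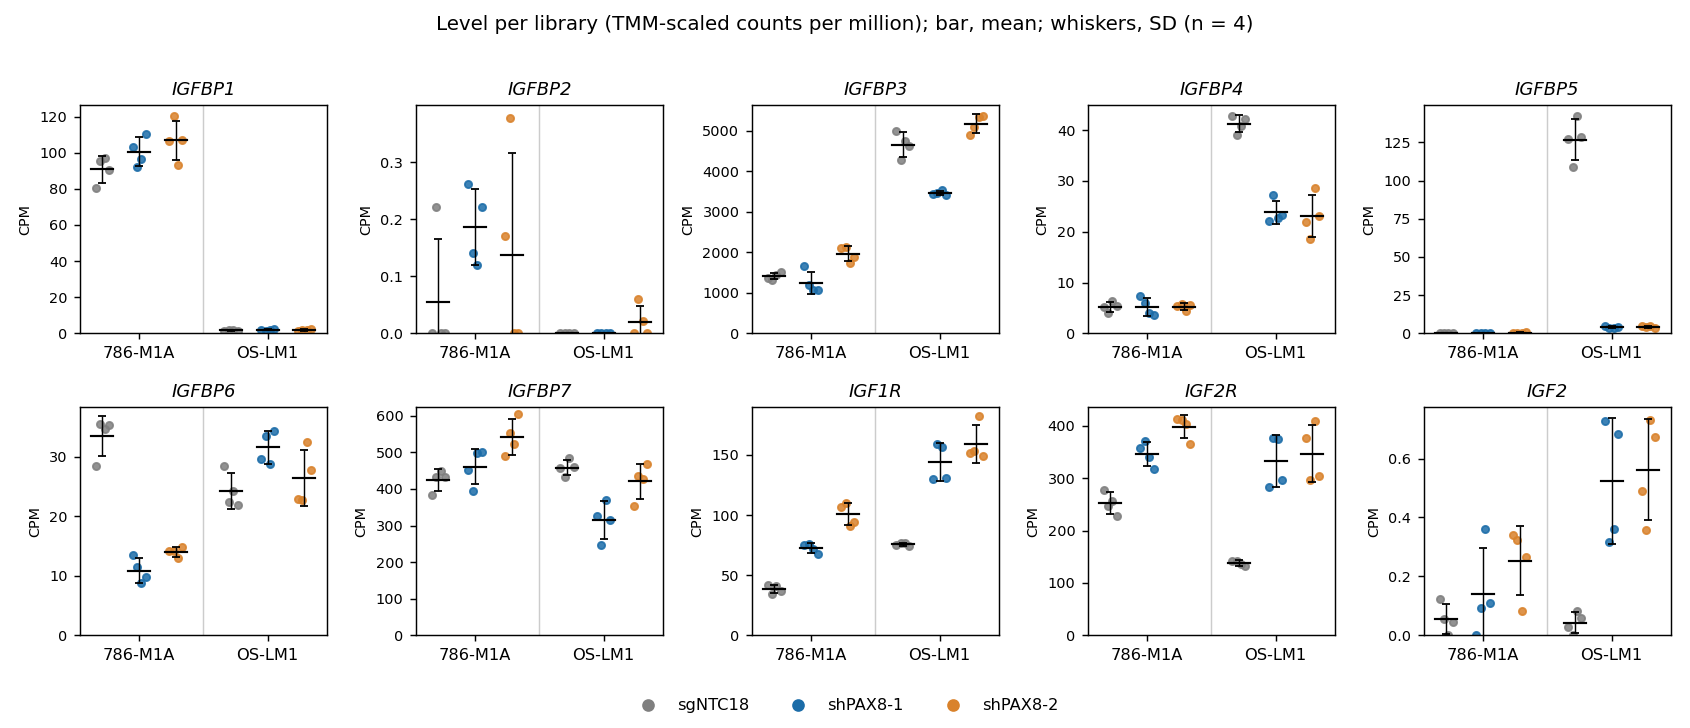
CPM of the 10 genes in each library, 1 panel per gene, with the 6 groups on the horizontal axis, 1 point per library, a bar at the mean and whiskers of 1 SD (n = 4). IGFBP5 is high only in OS-LM1 with sgNTC18, at 109 to 142 CPM, IGFBP1 only in 786-M1A, and both receptors are higher with each shPAX8 construct than with sgNTC18.

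The composition of the binding proteins differed between the lines. On a per-length scale (TPM, which corrects for transcript length), IGFBP3 ranked first in all 6 groups and IGFBP7 second, with overlapping ranges in 786-M1A with shPAX8-1. Summed over the 7 binding proteins, the 786-M1A libraries averaged 1891 TPM with sgNTC18, 1667 with shPAX8-1 and 2264 with shPAX8-2, and the OS-LM1 libraries 3976, 2956 and 4120.4 TPM. IGFBP3 made up 53.1% ± 1.9 (SD, n = 4), 48.9% ± 6.2 and 56.7% ± 3.1 of the sum in 786-M1A and 78.8% ± 0.72, 80.1% ± 2.0 and 82.5% ± 1.1 in OS-LM1. IGFBP7 made up 37.7%, 43.3% and 37.0% in 786-M1A and 18.3%, 17.1% and 15.8% in OS-LM1. The share ranges of IGFBP3 did not overlap between the lines, the highest 786-M1A library standing at 60.4% and the lowest OS-LM1 library at 78.2%.

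The minor binding proteins differed in identity. IGFBP1 held 5.46% of the sum in 786-M1A with sgNTC18 and 0.0421% in OS-LM1, while IGFBP5 held 0.00473% and 0.890%. With shPAX8 the IGFBP5 share in OS-LM1 was 0.0388% and 0.0290%. In OS-LM1 with sgNTC18, IGFBP5 at a mean of 35.4 TPM ranked 4, next to IGFBP4 at 32.5 TPM with overlapping ranges, and above IGF2R at 26.5 TPM. With either shPAX8 construct it ranked 8, at 1.14 and 1.195 TPM (means), below IGFBP1. The scale is relative within a library and gives no protein level.

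**Figure D2:**
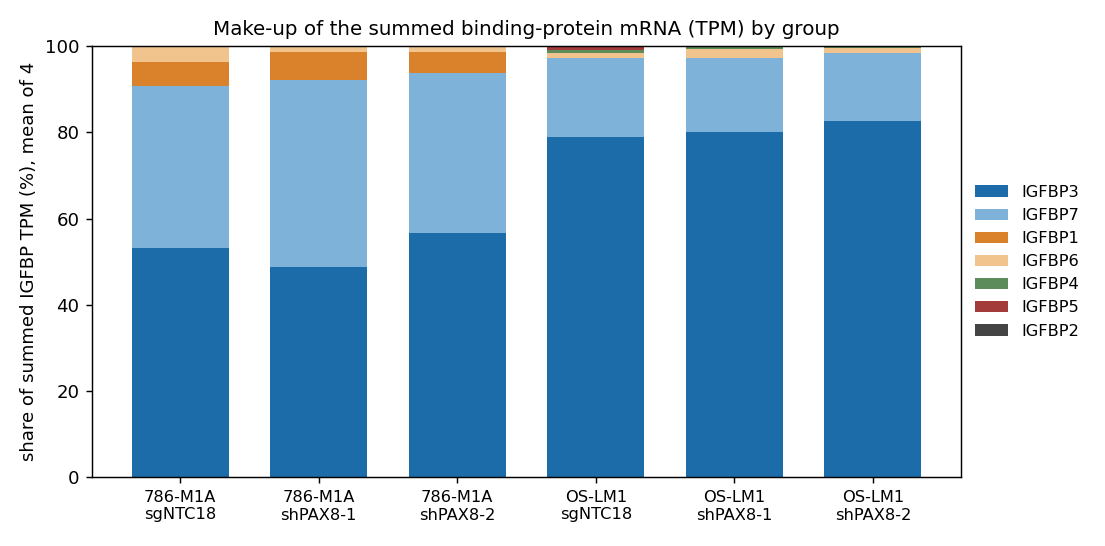
Mean share of each binding protein in the summed TPM of the 7 binding proteins, as stacked bars in percent for the 6 groups (n = 4 libraries each). IGFBP3 fills 48.9% to 56.7% of the bar in 786-M1A and 78.8% to 82.5% in OS-LM1, and IGFBP1 is visible only in 786-M1A.

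Shares of members past a threshold were read against all genes, since most genes differed in most comparisons. A call is an adjusted p under 0.05 in edgeR's quasi-likelihood test, adjusted over all genes tested in that comparison. In 786-M1A, 7 of the 10 genes passed the filter on low counts (IGFBP2, IGFBP5 and IGF2 did not). In OS-LM1 and in the fit of both lines, 9 passed, and IGFBP2 did not. Counts against sgNTC18 and between lines below leave IGFBP5 out. The counts of 9 genes, between the constructs in OS-LM1 and for the construct difference between the lines, include IGFBP5. They rest in part on the shPAX8 values that chose the family.

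Between the constructs, which share a construct type, IGFBP3 differed in the same direction in both lines. In 786-M1A, 3 of 7 genes were called, all lower with shPAX8-1, against 47.1% of all genes tested, and the median log2 difference of the 7 was -0.23 against -0.02 over all genes. In OS-LM1, 2 of 9 were called, both lower with shPAX8-1, against 29.1% of all genes, with a median of -0.14 against -0.03. That median of the members is the value of IGFBP5 itself. The shares of called members lay near those of all genes.

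IGFBP3 carries most IGF in plasma and is the most abundant binding protein here. In 786-M1A it read 1655, 1181, 1079 and 1062.5 CPM with shPAX8-1 and 2096, 2131, 1744 and 1883 CPM with shPAX8-2. In OS-LM1 it read 3429, 3457, 3534 and 3416 CPM with shPAX8-1 and 4891, 5093, 5346 and 5361 CPM with shPAX8-2. The construct groups did not overlap in either line. The log2 difference was -0.66 (SE 0.13, adjusted p = 0.0011) in 786-M1A and -0.61 (SE 0.08, adjusted p = 8.3e-06) in OS-LM1, 1.58-fold and 1.53-fold lower with shPAX8-1. The difference between the lines was 0.08 log2 (95% interval -0.23 to 0.38, adjusted p = 0.74).

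The size in 786-M1A depended on which shPAX8-1 libraries entered. It was -0.47 (adjusted p = 0.012) with replicates 1 and 2 alone and -0.88 (adjusted p = 1.8e-06) with replicates 3 and 4 alone, and was called both ways. The fibroblast marker sum moved with this comparison in 786-M1A, at 203 to 425 CPM with shPAX8-1 and 671 to 891 with shPAX8-2, and in OS-LM1 at 91.7 to 113 and 101 to 207. Of its 5 genes, COL1A2 and DCN were at 0 in 12 libraries each, while PDGFRB reached 877 CPM, COL1A1 205 and LUM 8.56 over the 24 libraries. The part of these markers in the IGFBP3 difference was not tested. PAX8 itself differed between the constructs by -1.18 log2 (SE 0.15) in 786-M1A and was called there. In OS-LM1 its difference was -0.05 log2 (SE 0.12) and was not called, which does not show equal depletion. The part of PAX8 depletion in the IGFBP3 difference was not tested.

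IGF1R, the signalling receptor, was lower with shPAX8-1 in 786-M1A, at 75.0, 75.9, 71.6 and 67.3 CPM against 107, 109.9, 91.2 and 94.5 CPM with shPAX8-2. The groups did not overlap, and the log2 difference was -0.47 (SE 0.10, adjusted p = 0.002). In OS-LM1 it was -0.17 (95% interval -0.36 to 0.02, adjusted p = 0.16) with overlapping groups. The difference between the lines was 0.33 log2 (95% interval 0.06 to 0.60) and missed the threshold (adjusted p = 0.063), though it was called with DESeq2 (adjusted p = 0.033) and when any 1 of 4 libraries was left out, namely OS-LM1 shPAX8-2 replicate 3 (0.40), OS-LM1 shPAX8-1 replicate 1 (0.38) or 4 (0.38), or 786-M1A shPAX8-2 replicate 3 (0.39). After each library was corrected for its trend with transcript GC content (GC trend removed), it was 0.19 (adjusted p = 0.21). IGF2R was not called in either line, at -0.20 (95% interval -0.39 to -0.01, adjusted p = 0.076) in 786-M1A and -0.09 (-0.32 to 0.15, adjusted p = 0.6) in OS-LM1. The 786-M1A value was -0.28 (adjusted p = 0.02) with shPAX8-1 replicates 3 and 4 alone and -0.13 (adjusted p = 0.38) with replicates 1 and 2 alone.

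IGFBP7, also called mac25 and enriched in vessel walls, was lower with shPAX8-1 in OS-LM1. The libraries read 326, 247, 371 and 316 CPM with shPAX8-1 and 353, 437, 428 and 467 CPM with shPAX8-2. The groups overlapped through replicate 3 of shPAX8-1 and replicate 1 of shPAX8-2, and the log2 difference was -0.45 (SE 0.11, adjusted p = 0.0035). In 786-M1A it was -0.23 (95% interval -0.44 to -0.02, adjusted p = 0.066), and the difference between the lines was -0.18 (-0.50 to 0.13, adjusted p = 0.39). Without 786-M1A shPAX8-2 replicate 1 the 786-M1A value became -0.29 (adjusted p = 0.045), and with shPAX8-1 replicates 1 and 2 alone -0.35 (adjusted p = 0.026). It was -0.046 (adjusted p = 0.73) with the GC trend removed.

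IGFBP6, which prefers IGF2 over IGF1, gave a call that depended on single libraries. In 786-M1A it read 13.5, 11.4, 8.85 and 9.72 CPM with shPAX8-1 and 14.1, 14.2, 12.9 and 14.9 CPM with shPAX8-2. The groups overlapped, and the log2 difference was -0.37 (SE 0.14, adjusted p = 0.044). The call was lost in 9 of 12 fits that left out 1 library (adjusted p from 0.0064 to 0.14), and in the fit on shPAX8-1 replicates 1 and 2 alone (-0.17, adjusted p = 0.41). The value became 0.19 (adjusted p = 0.15) with the GC trend removed. In OS-LM1 the difference was 0.22 (95% interval -0.03 to 0.46, adjusted p = 0.18), 0.36 (adjusted p = 0.028) without OS-LM1 shPAX8-2 replicate 3, and 0.40 (adjusted p = 0.0007) with the GC trend removed. The difference between the lines was 0.61 log2 (SE 0.19, adjusted p = 0.018), the 1 member of 9 called in that comparison, against 27.2% of all genes. It fell to 0.53 (adjusted p = 0.05) without 786-M1A shPAX8-1 replicate 3 and to 0.19 (adjusted p = 0.3) with the GC trend removed.

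IGFBP1 and IGFBP4 were not called between the constructs in either line. IGFBP1 differed by -0.09 (95% interval -0.31 to 0.13) in 786-M1A and -0.05 (-0.52 to 0.42) in OS-LM1, and IGFBP4 by -0.01 (-0.48 to 0.47) and 0.01 (-0.23 to 0.25). For IGFBP4 in 786-M1A, the shPAX8-1 libraries read 7.32, 6.03, 3.97 and 3.59 CPM, so that replicates 1 and 2 lay above all of the shPAX8-2 libraries and replicates 3 and 4 below all of them. Removing the GC trend moved this value to 0.50 (adjusted p = 0.02). IGF2 in OS-LM1 differed by -0.19 (-1.07 to 0.69, adjusted p = 0.78) on few counts.

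Against sgNTC18, both receptors were higher with each construct in each line. In 786-M1A, 3 of 7 genes were called with shPAX8-1 (2 higher, 1 lower) against 70.6% of all genes, and 6 of 7 with shPAX8-2 (5 higher, 1 lower) against 62.5%. In OS-LM1, 7 of 8 were called with shPAX8-1 (4 higher, 3 lower) against 71.4% of all genes, and 4 of 8 with shPAX8-2 (3 higher, 1 lower) against 68.4%. In 786-M1A the medians were 0.14 and 0.37 log2 against 0.03 and 0.02 over all genes, and in OS-LM1 0.32 and 0.24 against -0.01 and -0.01. Marker sums of other cell types moved with these comparisons. In OS-LM1 the 4 leukocyte markers summed to 78.0 to 92.3 CPM with sgNTC18, 250.2 to 361 with shPAX8-1 and 193 to 265 with shPAX8-2, nearly all from CD68, and the 5 fibroblast markers to 14.9 to 20.1, 91.7 to 113 and 101 to 207 CPM. In 786-M1A the leukocyte sums were 185 to 217, 202 to 307 and 309 to 402 CPM, and the fibroblast sums 535 to 726, 203 to 425 and 671 to 891 CPM, the latter lower without overlap with shPAX8-1. Their part in the values below was not tested.

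IGF1R in 786-M1A read 41.7, 34.0, 41.2 and 36.8 CPM with sgNTC18, below all of the shPAX8 libraries given above. The log2 fold change was 0.94 (SE 0.10, adjusted p = 1.1e-06) with shPAX8-1 and 1.41 (SE 0.10, adjusted p = 3.4e-08) with shPAX8-2. In OS-LM1 it read 74.7, 77.0, 76.8 and 74.1 CPM with sgNTC18, 130.03, 159, 157 and 131 with shPAX8-1 and 151, 153, 182 and 149 with shPAX8-2. The fold changes were 0.90 (SE 0.09, adjusted p = 3.5e-08) and 1.08 (SE 0.09, adjusted p = 3.8e-09), with no overlap. The depletion response did not pass the test of a difference between the lines (-0.15 log2, 95% interval -0.39 to 0.09, adjusted p = 0.27).

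IGF2R in OS-LM1 read 143, 143, 135 and 132 CPM with sgNTC18, 283, 378, 374 and 296 with shPAX8-1 and 376, 297, 409 and 305 with shPAX8-2. The sgNTC18 libraries lay below all others, and the log2 fold change was 1.24 (SE 0.11, adjusted p = 1.0e-08) and 1.33 (SE 0.11, adjusted p = 4.9e-09). In 786-M1A the sgNTC18 libraries read 278, 247, 257 and 227.5 CPM, the shPAX8-1 libraries 357, 370.6, 341 and 317 and the shPAX8-2 libraries 413, 412, 403 and 366. Here too the groups did not overlap, with changes of 0.48 (SE 0.09, adjusted p = 2.0e-04) and 0.68 (SE 0.09, adjusted p = 1.1e-05). The response was larger in OS-LM1 by 0.74 log2 (SE 0.13, adjusted p = 2.5e-05).

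The balance of the receptors lay lower with shPAX8 than with sgNTC18 in 786-M1A and higher in OS-LM1. The ratio of IGF2R to IGF1R in TPM was 8.87 ± 0.67 (SD, n = 4) in 786-M1A with sgNTC18, 6.44 ± 0.097 with shPAX8-1 and 5.36 ± 0.40 with shPAX8-2. In OS-LM1 it was 2.46 ± 0.094, 3.10 ± 0.14 and 2.93 ± 0.33. The ratio ranges with sgNTC18 did not overlap those with shPAX8 in either line, and the ratio itself was not tested.

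**Figure D3:**
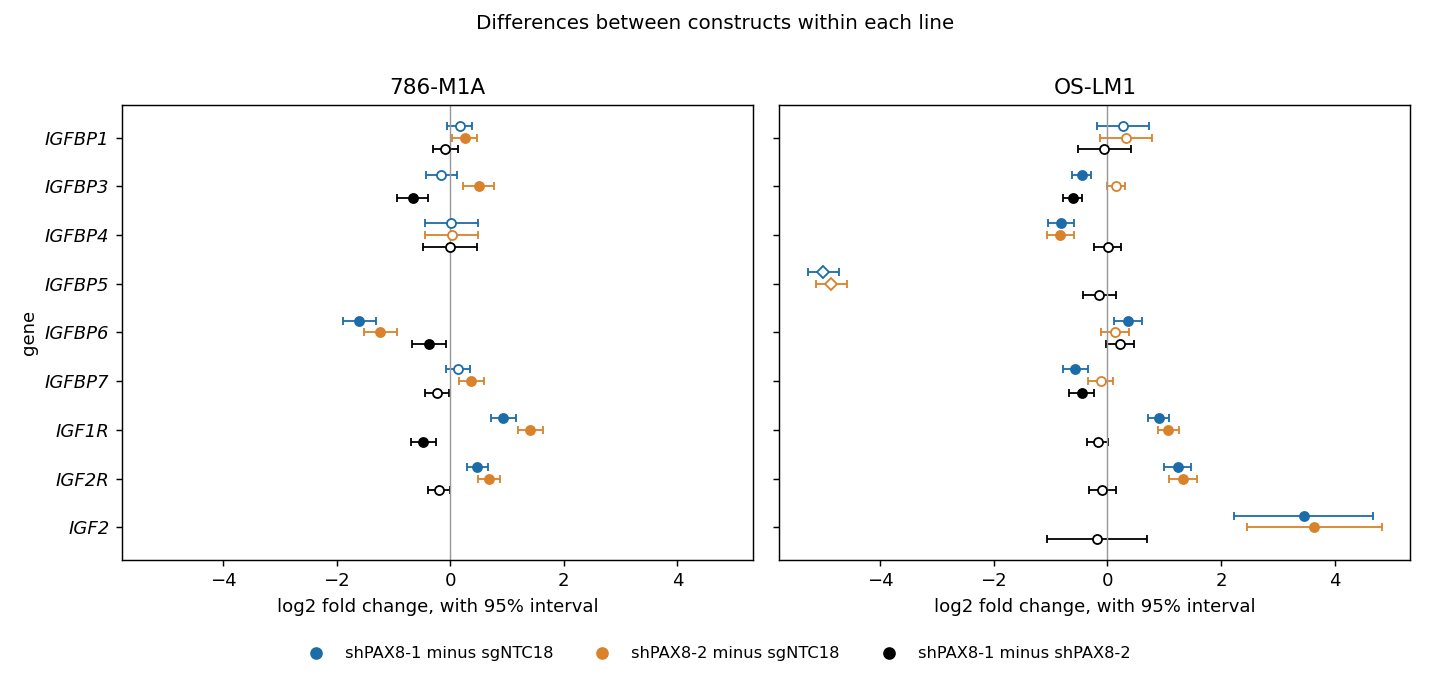
Log2 fold change of each gene with its 95% interval in the 3 comparisons within each line, with filled points for an adjusted p under 0.05, open points for the rest and open diamonds for IGFBP5 values that were not tested. IGF1R and IGF2R lie above 0 in all 4 comparisons of shPAX8 with sgNTC18, IGFBP6 lies at -1.60 and -1.23 in 786-M1A, and IGFBP2, which passed no filter, is not drawn.

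IGFBP6 fell in 786-M1A. It read 28.4, 35.5, 34.7 and 35.3 CPM with sgNTC18, and every shPAX8 library stood at 14.9 CPM or less. The log2 fold change was -1.60 (SE 0.14, adjusted p = 8.9e-08) with shPAX8-1 and -1.23 (SE 0.14, adjusted p = 2.1e-06) with shPAX8-2, and with the GC trend removed the former was -0.86, still called. In OS-LM1 the sgNTC18 libraries read 28.5, 22.5, 24.2 and 21.8 CPM, the shPAX8-1 libraries 29.7, 33.5, 28.7 and 34.3, and the shPAX8-2 libraries 22.8, 22.7, 32.5 and 27.7. The change was 0.36 (SE 0.12, adjusted p = 0.011) with shPAX8-1, where the groups did not overlap, and 0.14 (95% interval -0.11 to 0.39, adjusted p = 0.31) with shPAX8-2. With the GC trend removed these values were 0.92 and 0.52, both called. The response differed between the lines by 1.69 log2 (SE 0.16, adjusted p = 1.4e-09).

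IGFBP4, a substrate of PAPPA, was lower in OS-LM1 cells with shPAX8. The sgNTC18 libraries read 42.7, 39.1, 40.9 and 42.3 CPM, the shPAX8-1 libraries 22.2, 27.2, 22.8 and 23.3, and the shPAX8-2 libraries 22.0, 18.6, 28.6 and 23.1. The groups did not overlap the controls, and the log2 fold change was -0.82 (SE 0.11, adjusted p = 2.2e-06) and -0.83 (SE 0.11, adjusted p = 2.1e-06). With the GC trend removed the values were -0.26 and -0.45, still called. In 786-M1A IGFBP4 ran at 3.59 to 7.32 CPM in the 12 libraries, with changes of 0.02 (95% interval -0.44 to 0.48) and 0.03 (-0.44 to 0.50), neither called, although the former was 0.67 (adjusted p = 0.0012) with the GC trend removed. The response differed between the lines by -0.81 log2 (SE 0.21, adjusted p = 0.0015).

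IGFBP3 was called lower with shPAX8-1 in OS-LM1 and higher with shPAX8-2 in 786-M1A. In 786-M1A the sgNTC18 libraries read 1365, 1326, 1434.5 and 1513 CPM, and in OS-LM1 4997, 4269.6, 4739 and 4609.9 CPM. With shPAX8-1 the change was -0.16 (95% interval -0.43 to 0.12, adjusted p = 0.28) in 786-M1A and -0.45 (SE 0.08, adjusted p = 3.1e-05) in OS-LM1. With shPAX8-2 it was 0.50 (SE 0.13, adjusted p = 0.0035) in 786-M1A and 0.16 (95% interval -0.0030 to 0.32, adjusted p = 0.076) in OS-LM1. The OS-LM1 value with shPAX8-2 was called with DESeq2 (adjusted p = 0.03) and with the GC trend removed (0.24, adjusted p = 0.0074). Without 786-M1A shPAX8-1 replicate 1, the highest library of its group, the 786-M1A value with shPAX8-1 was -0.33 (adjusted p = 0.006). With replicates 1 and 2 alone it was 0.0038 (adjusted p = 0.98). The difference in response between the lines was -0.29 log2 (adjusted p = 0.059), and it was called when OS-LM1 sgNTC18 replicate 2, 786-M1A shPAX8-2 replicate 3, or 786-M1A shPAX8-1 replicate 3 or 4 was left out (adjusted p from 0.023 to 0.045 over these fits).

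IGFBP7 in OS-LM1 read 457, 433, 484 and 459 CPM with sgNTC18. The change was -0.57 (SE 0.11, adjusted p = 9.4e-05) with shPAX8-1, where groups did not overlap, and -0.12 (95% interval -0.34 to 0.10, adjusted p = 0.34) with shPAX8-2. In 786-M1A the 3 groups read 383 to 450.4, 396 to 499.96 and 491 to 605 CPM. The change was 0.14 (95% interval -0.07 to 0.35, adjusted p = 0.21) with shPAX8-1 and 0.37 (SE 0.10, adjusted p = 0.0041) with shPAX8-2. The former was called with the GC trend removed (0.38, adjusted p = 0.0027) and with shPAX8-1 replicates 3 and 4 alone (0.25, adjusted p = 0.034), and was -0.0063 with replicates 1 and 2 alone. The response differed between the lines by -0.57 log2 (SE 0.13, adjusted p = 6.5e-04).

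IGFBP1, a liver and hypoxia-associated binding protein, was called in 1 of the 4 comparisons with sgNTC18. In 786-M1A its libraries ran at 80.2 to 97.1 CPM with sgNTC18, 92.0 to 110.5 with shPAX8-1 and 93.4 to 120.2 with shPAX8-2, and the ranges overlapped. The change with shPAX8-2 was 0.26 (SE 0.10, adjusted p = 0.043), lost in 8 of 12 fits that left out 1 library, and 0.17 (95% interval -0.05 to 0.39, adjusted p = 0.16) with shPAX8-1. The latter was called with the GC trend removed (0.32, adjusted p = 0.0024). In OS-LM1 it ran at 1.32 to 2.37 CPM, with changes of 0.28 (-0.18 to 0.74, adjusted p = 0.27) and 0.33 (-0.13 to 0.79, adjusted p = 0.19).

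IGF2 was scarcely read. In OS-LM1 the sgNTC18 libraries held 1, 0, 3 and 2 counts, the shPAX8-1 libraries 15, 6, 9 and 18, and the shPAX8-2 libraries 7, 6, 35 and 21. Every shPAX8 library held more counts than any sgNTC18 library, and the pooled, depth-scaled ratio was 12.2 (95% counting interval 5.23 to 35.0) and 14.5 (6.32 to 40.8). The fitted log2 changes were 3.45 (SE 0.58, adjusted p = 2.8e-05) and 3.64 (SE 0.57, adjusted p = 1.3e-05). The level stayed at 0.73 CPM or less and at 0.27 TPM or less in all 24 libraries. In 786-M1A the libraries held 0 to 6 counts and were not tested. Counts that fall on IGF2 and on the overlapping features INS-IGF2 and IGF2-AS may be split between them, and the strand setting of the counting is not given in the sources used here.

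Between the lines, IGFBP1 and IGFBP4 differed most among the genes tested. With sgNTC18, 6 of 8 genes were called (3 higher in OS-LM1, 3 lower), against 63.1% of all genes. Over the shPAX8 libraries, 7 of 8 were called (5 higher, 2 lower), against 83.2%. The medians were -0.07 and 1.03 log2 against 0.01 and 0.00 over all genes. IGFBP1 was lower in OS-LM1 by -5.87 log2 (SE 0.15, adjusted p = 7.6e-22) with sgNTC18 and -5.73 (SE 0.10, adjusted p = 1.7e-25) with shPAX8, 58.4-fold and 53.1-fold. IGFBP4 was higher by 2.97 (SE 0.17, adjusted p = 3.2e-14) and 2.16 (SE 0.12, adjusted p = 5.9e-15). IGFBP3 was higher by 1.72 (SE 0.11) and 1.44 (SE 0.08), and IGF1R by 0.98 (SE 0.09) and 0.83 (SE 0.07), all called, and for these 4 genes the libraries of the lines did not overlap.

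The remaining genes differed less between the lines with sgNTC18, apart from IGFBP5. IGFBP6 was lower in OS-LM1 with sgNTC18 (-0.46, SE 0.13, adjusted p = 0.0027) and higher with shPAX8 (1.23, SE 0.10, adjusted p = 4.1e-12). The former was 0.12 (adjusted p = 0.22) with the GC trend removed. IGF2R was lower in OS-LM1 with sgNTC18 (-0.87, SE 0.11, adjusted p = 7.6e-08), and with shPAX8 the difference was -0.13 (95% interval -0.28 to 0.02, adjusted p = 0.11). Without OS-LM1 shPAX8-2 replicate 3 the latter was -0.17 (adjusted p = 0.034), and it was also called with the GC trend removed (-0.20, adjusted p = 0.0056). IGFBP7 did not pass with sgNTC18 (0.11, 95% interval -0.11 to 0.33, adjusted p = 0.38) and was lower in OS-LM1 with shPAX8 (-0.46, SE 0.08, adjusted p = 4.8e-06). IGF2 differed by -0.26 (-2.18 to 1.67, adjusted p = 0.83) and 1.53 (SE 0.41, adjusted p = 0.0015) on few counts. IGFBP5, not tested, was 8.61 log2 (SE 0.24) and 3.81 (SE 0.21) higher in OS-LM1.

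In the test of the depletion response between the lines, 4 of 8 genes were called against 58.8% of all genes. IGFBP6 and IGF2R had the more positive response in OS-LM1 and IGFBP4 and IGFBP7 the more negative. IGFBP1 (0.14, 95% interval -0.21 to 0.48, adjusted p = 0.5) and IGF2 (1.78, -0.50 to 4.07, adjusted p = 0.17) were not called. The same sgNTC18 libraries enter each of these responses.

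Beyond the 10 genes, 29 genes of the pathway were listed: ligands and insulin-family receptors, carriers, pappalysins and their inhibitors, the protease HTRA1, adaptors, kinases, FOXO factors, IGF2 RNA-binding proteins and H19. Between the constructs, 11 of 21 tested were called in 786-M1A (5 higher with shPAX8-1, 6 lower) against 47.1% of all genes, and 11 of 21 in OS-LM1 (7 higher, 4 lower) against 29.1%. Against sgNTC18, 16 of 21 (11 higher) and 17 of 21 (11 higher) were called in 786-M1A against 70.6% and 62.5% of all genes, and 20 of 21 (15 higher) and 18 of 21 (13 higher) in OS-LM1 against 71.4% and 68.4%. Between the lines, 18 of 22 (11 higher in OS-LM1) were called with sgNTC18 and 19 of 22 (13 higher) with shPAX8, against 63.1% and 83.2% of all genes. For line by construct 7 of 22 were called against 27.2%, and for line by depletion 17 of 22 against 58.8%.

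The 4 list genes with the largest called difference between the constructs were IGF2BP1, STC2, HTRA1 and IRS2. HTRA1, a secreted serine protease that cleaves IGFBP5 among other proteins, went in opposite directions. In 786-M1A it ran at 86.3 to 111 CPM with shPAX8-1 and 146 to 181 with shPAX8-2 (-0.83, SE 0.10, adjusted p = 3.9e-05), and in OS-LM1 at 173 to 209.6 and 103 to 129 CPM (0.73, SE 0.10, adjusted p = 1.3e-05). The difference between the lines was 1.59 log2 (adjusted p = 1.7e-08). STC2 was higher with shPAX8-1 in both, by 1.11 (SE 0.12, adjusted p = 9.0e-06) in 786-M1A and 0.77 (SE 0.10, adjusted p = 6.8e-06) in OS-LM1. IRS2, an adaptor of IGF1R and the insulin receptor, was lower with shPAX8-1 in OS-LM1 (-0.80, SE 0.08, adjusted p = 5.1e-07). IGF2BP1, an RNA-binding protein of fetal tissue, was higher there (1.21, SE 0.36, adjusted p = 0.016) at no more than 1.24 CPM.

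PAPPA, PAPPA2, STC1 and INSR were named after their values were seen. PAPPA in OS-LM1 ran at 6.97 to 8.21 CPM with sgNTC18, 119.5 to 133 with shPAX8-1 and 96.5 to 113 with shPAX8-2, log2 changes of 4.04 (SE 0.09, adjusted p = 1.9e-17) and 3.77 (SE 0.09, adjusted p = 6.7e-17). In 786-M1A it was also called higher, by 2.58 (SE 0.45, adjusted p = 9.8e-05) and 2.39 (SE 0.46, adjusted p = 3.2e-04), at no more than 2.17 CPM. PAPPA2, its paralog, was called higher in 786-M1A too, by 2.79 (adjusted p = 5.8e-06) and 2.63 (adjusted p = 1.9e-05), and did not pass the filter in OS-LM1. IGFBP4 and IGFBP5, substrates of PAPPA, were lower and PAPPA higher in the same OS-LM1 libraries, a co-occurrence of RNA levels only. The fall of IGFBP5 there chose the family. In 786-M1A both proteases were called higher, while IGFBP4 was not called with either construct (0.02 and 0.03). STC1 and STC2 were higher with each construct in each line, STC1 from 19.7 to 29.0 CPM with sgNTC18 to 244 to 487 with shPAX8 in 786-M1A, and from 21.2 to 24.2 to 106 to 171 CPM in OS-LM1.

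INSR, the insulin receptor, was read at 0 counts in all 4 libraries of 786-M1A with sgNTC18, while OS-LM1 ran at 14.8 to 16.8 CPM there. The shPAX8 libraries of 786-M1A held 3 to 26 counts each. A pooled count of 0 allows 3 counts. Set against these 3, INSR was 21.3-fold higher with shPAX8-1 and 17.2-fold higher with shPAX8-2 in 786-M1A. With sgNTC18 it was 508-fold higher in OS-LM1 than in 786-M1A. The folds allow for the error of the 0 only. They leave out that of the 50 and 34 pooled counts with shPAX8-1 and shPAX8-2, and 1 shPAX8-1 library held 26. In OS-LM1 it rose with shPAX8 by 0.41 (SE 0.11, adjusted p = 0.0023) and 0.62 (SE 0.11, adjusted p = 4.1e-05).

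**Figure D4:**
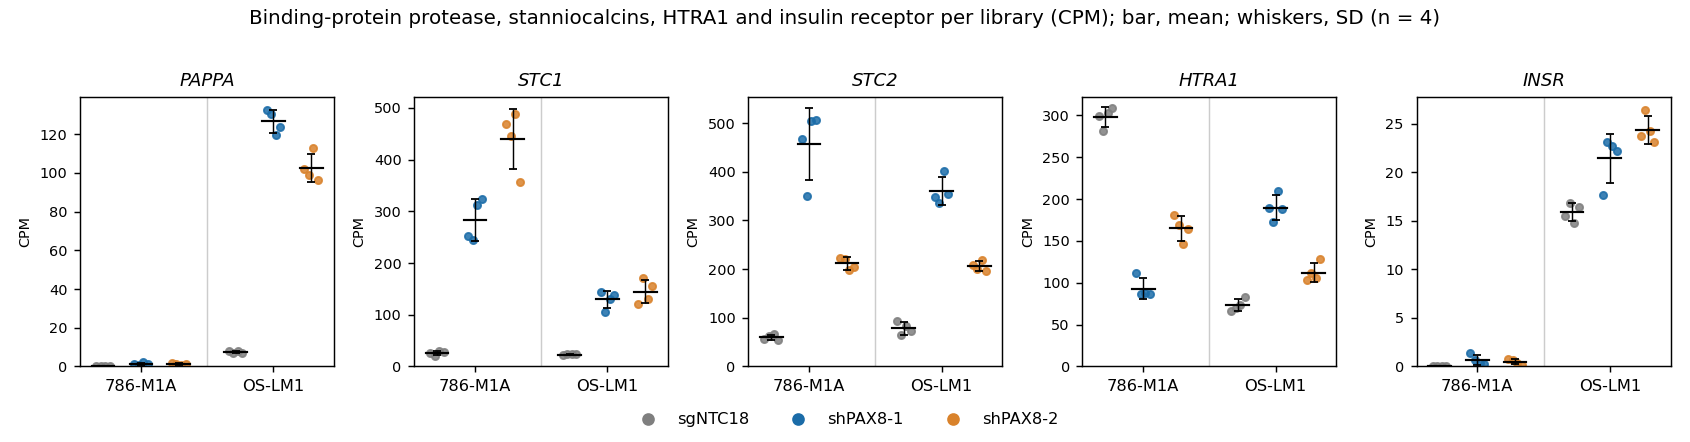
CPM of PAPPA, STC1, STC2, HTRA1 and INSR in each library, 1 panel per gene, with the 6 groups on the horizontal axis, 1 point per library, bars at the mean and whiskers of 1 SD (n = 4). PAPPA is high only in OS-LM1 with shPAX8, at 96.5 to 133 CPM, HTRA1 is lower with shPAX8 in 786-M1A and higher in OS-LM1, and INSR is at 0 in 786-M1A with sgNTC18.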

How the data were processed

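Bulk poly(A) RNA-seq of 24 libraries, 4 per group, was used. Per the submitters' processing notes, RSEM with Bowtie2 and build hg38 were used. The authors deposited per-gene tables of expected counts, TPM and FPKM for 26475 genes, with RefSeq transcript IDs. The deposited expected counts are estimated counts without normalization, the deposited TPM is scaled by the authors for transcript length and library total, and the deposited FPKM was not used. Versions, annotation release and strand setting are not given in the sources used here. The labels name a KAPA stranded kit and the methods of the study Lexogen kits.

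Here, edgeR 4.0.16 in R 4.3.3 was run on the expected counts after rounding (filterByExpr, TMM, robust quasi-likelihood test, Benjamini-Hochberg adjustment over all genes tested, threshold 0.05). Groups came from the labels. Construct and sgNTC18 comparisons used the 12 libraries of a line, and line comparisons and differences between lines used all 24. CPM is on 1 TMM scale of 24 libraries, and log2 CPM has a prior count of 2. TPM served for levels between genes. Floors were 3 counts, and ratios of pooled counts have exact 95% intervals that cover counting error only.

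The family, the 29-gene list and the markers were chosen with earlier results of these data known. All 10 genes are named, plus the 4 list genes with the largest called construct difference and the 5 genes most like IGFBP5. Alternatives were DESeq2 (1.42.0), its size factors, no filter beyond 1 count, an absolute log2 change of at least 1, the replicate number as a block, 1 fit of 24 libraries, removal of each library's GC trend (spline of 5 degrees of freedom), leaving out sgNTC18, 786-M1A shPAX8-1 replicates 1 and 2 or 3 and 4 alone, and each library left out. Depth of 11634419 to 52059375 counts per library limits the genes near 0. No replicates agreed within sampling noise. The procedure was tested on simulated data.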

Additional observations from a re-analysis of the deposited data

Results flagged for a closer look

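In 45 groups of 4 libraries with a mean of at least 1 CPM, 2 held a library far from the others by Dixon's criterion, where about 1 in 20 is flagged by chance. IGFBP6 in 786-M1A sgNTC18 replicate 1 was lowest, at 28.4 CPM. IGF1R in OS-LM1 shPAX8-2 replicate 3 was highest, at 182 CPM.

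By a test of the difference itself in edgeR's quasi-likelihood fit, the construct difference of IGFBP6 differed between the lines by 0.61 log2 (adjusted p = 0.018). The response to shPAX8 against sgNTC18 was more negative in OS-LM1 for IGFBP4 (-0.81) and IGFBP7 (-0.57), and more positive for IGFBP6 (1.69) and IGF2R (0.74). Depletion of PAX8 and the change of construct type cannot be told apart in these 4 responses.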

How the results depend on the processing

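The directions of the binding proteins near 0 and the counts of members called depended most on the settings. Values of single genes were compared under the alternatives that keep all libraries of a group or split 786-M1A shPAX8-1. Of 575 values, 518 were unchanged, 21 reversed, 22 gained and 9 lost the call, and 5 moved. Leaving out 1 library left 1377 of 1440 unchanged, and 7 moved. Only 544 of the 575 and 1344 of the 1440 were tested, where unchanged means the same direction and side of the threshold. The rest were IGFBP5 values without a test. For these, unchanged means the same direction and a shift of at most 1 SD of the OS-LM1 sgNTC18 libraries in log2 CPM, and moved means a larger shift. Why a value moved was not tested.

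With the GC trend removed, the signs reversed between the constructs for IGFBP1 (0.032), IGFBP4 (0.50) and IGFBP6 (0.19) in 786-M1A and for IGFBP1 (0.0039) and IGF2 (0.015) in OS-LM1. They also reversed for IGFBP3 with shPAX8-1 against sgNTC18 in 786-M1A (0.0064), for IGFBP6 (0.12) and IGF2 (0.057) between the lines with sgNTC18, and for IGFBP1 (-0.049), IGFBP3 (-0.043) and IGFBP4 (-0.33) in line by construct. With 786-M1A shPAX8-1 replicates 1 and 2 alone, IGFBP4 was 0.34 between the constructs, IGFBP3 0.0038 and IGFBP7 -0.0063 against sgNTC18, and IGFBP3 -0.11 and IGFBP4 -0.30 in line by construct. IGFBP4 with shPAX8-1 against sgNTC18 in 786-M1A was -0.46 with replicates 3 and 4 alone, -0.051 with no filter beyond 1 count, -0.013 with the replicate block and -0.0012 in 1 fit of 24 libraries. With shPAX8-2 and no filter beyond 1 count it was -0.032.

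With an absolute log2 change of at least 1 required, members called are given with all genes called in brackets. Between the constructs they were 0 of 7 in 786-M1A (1479 of 14452 genes) and 0 of 9 in OS-LM1 (766 of 15049). Against sgNTC18 in 786-M1A they were 1 of 7 with shPAX8-1 (5473 of 14452) and 2 of 7 with shPAX8-2 (3960 of 14452). With shPAX8-1 in OS-LM1 they were 2 of 8 (4749 of 15049). Between the lines with sgNTC18 they were 3 of 8 (4422 of 15665). They were 0 of 9 in line by construct (1453 of 15665) and 1 of 8 in line by depletion (4618 of 15665). With shPAX8-1 against sgNTC18 in 786-M1A, 6 of 7 were called with the GC trend removed (10852 of 14452 genes) and 5 of 7 with replicates 3 and 4 alone (10789 of 14883). In line by construct, 2 of 9 were called with DESeq2 (4739 of 15665 genes) and 0 of 9 with the GC trend removed (4919 of 15665). There, 0 of 9 were called with replicates 1 and 2 alone (2581 of 16286) and 4 of 9 with replicates 3 and 4 alone (6817 of 16280). These 4 include IGFBP5 (1.98), whose OS-LM1 shPAX8 values chose the family.

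When each library was left out, line by construct had 0 to 2 of 9 members called, where 3328 of 15963 to 5343 of 15941 genes were called. Between the constructs the values ran from -0.22 to 0.14 for IGFBP4 in 786-M1A, and in OS-LM1 from -0.15 to 0.088 for IGFBP1, -0.075 to 0.16 for IGFBP4, -0.37 to 0.0036 for IGF2 and -0.15 to 0.020 for IGF2R. Against sgNTC18 in 786-M1A, IGFBP4 ran from -0.18 to 0.16 with shPAX8-1 and from -0.081 to 0.13 with shPAX8-2. IGF2 between the lines with sgNTC18 ran from -0.75 to 0.53, and in line by construct IGFBP1 ran from -0.036 to 0.17 and IGFBP4 from -0.10 to 0.25.

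Of 24 same-numbered pairs of libraries within a line, 8 had a correlation of deviations over 0.1 (mean 0.0033). Of 72 differently numbered pairs, 27 did (mean -0.0016). The same-numbered correlations ran from -0.68 to 0.62, so a mean near 0 does not settle whether replicate numbers pair the libraries. Between 786-M1A shPAX8-1 and shPAX8-2 the same-numbered correlations were all positive, at 0.46, 0.33, 0.62 and 0.092, while those of differently numbered pairs ran from -0.75 to 0.68. There the block ended the call of IGFBP6 (-0.37, adjusted p = 0.057) and gained that of IGFBP7 (-0.23, adjusted p = 0.05). With the replicate number as a block, the members called moved from 6 to 5 with shPAX8-2 against sgNTC18 in 786-M1A, and all genes called there from 9028 to 9179 of 14452. Genes called between the constructs moved from 6803 to 6997 in 786-M1A and from 4378 to 3644 in OS-LM1. Depth limits IGF2, IGFBP2 and, in 786-M1A, IGFBP5.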
